A study of Drosophila melanogaster with 10 samples.

Results

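Glycolysis is the chain of cytosolic reactions that splits glucose into pyruvate and yields ATP and NADH. Its enzymes are among the most abundant proteins of most cells, and in flies glucose also enters the chain from glycogen and from trehalose, the sugar of the hemolymph. In growing Drosophila tissues and cell lines the pathway is also known to feed biosynthesis.

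The genes described here encode 10 enzymes of glycolysis and of its pyruvate and lactate end: Hex-A, Pgi, Pfk, Tpi, Gapdh1, Gapdh2, Pgk, Eno, Pyk and Ldh. They were listed by name, a probe set was taken where the array annotation ties it to that 1 gene, and the probe set with the highest mean over all arrays stood for a gene. Of the 10 genes, 7 had such a probe set, each exactly 1, out of 11981 genes with a probe set that names 1 gene. Gapdh2, Pyk and Ldh are not analysed here. The 7 genes lie on the X chromosome (Hex-A), on arm 2R (Pgi, Pfk and Gapdh1), on 3R (Tpi) and on 2L (Pgk and Eno), by the RefSeq annotation of Release 6. The build behind the array's own annotation is not given in the sources used here, so no coordinates are printed.

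The samples were Drosophila SL2 cells, an established male line derived from embryos and related to blood cells, and each gave RNA for 1 Affymetrix expression array. Cells received 10 µg of double-stranded RNA (dsRNA) and were cultured for 7 days at 26 °C. The dsRNA was either of 2 constructs against MBD-R2, a subunit of the chromatin complex NSL, named M1 (3 arrays) and M2 (3 arrays), or was against GST, a sequence used as the RNAi control (3 arrays). One further array came from cells with no dsRNA. All groups share the same line, and cultures of the M1, M2 and GST groups carry replicate numbers 1 to 3 that the submitters call biological replicates. The title of the third M2 array reads M3, while its source name and description read M2, and it was grouped as M2. No probe set is named for MBD-R2, so its depletion was not checked on these arrays. Values are log2 expression levels, in which a difference of 1 is a change of 2-fold, and levels are not compared between genes.

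The arrays fall into 2 sets. The control probe sets at the 3′ end of actin exceeded those at its 5′ end by 2.31 to 2.84 log2 units in replicate 3 of every dsRNA group and in the array with no dsRNA, against 0.32 to 1.16 in replicates 1 and 2. For eIF-4a the same difference was 2.95 to 3.55 in those 4 arrays, against 1.73 to 1.97 in replicates 1 and 2. This gap, a sign of RNA or labelling quality, follows the replicate number and is present in M1, M2 and GST alike. Its part in the results was not tested, and values within each set are given beside the results they touch. Of 8 hemocyte-like markers, all had a level above the filter, and their summed log2 level was 99.4 to 106.1 in knockdown arrays, 101.43 in the array with no dsRNA and 100.97 to 103.17 in GST arrays. By the probe set that stood for each gene, NimC1 alone of the 8 was called higher in the knockdown, by 2.20 ± 0.27 (SE). A second Pxn probe set also rose, by 1.55 ± 0.44 (adjusted p 0.0356). In replicate 3 it was at 6.40 in M1, 6.72 in M2 and 6.25 in GST, so the Pxn probe sets disagree. By the probe sets that stood for them, 3 markers were lower in the knockdown in replicate 3. There the effect was -1.46 for Pxn, -0.76 for Hml and -0.92 for vkg, against -0.15, 0.23 and 0.01 in replicates 1 and 2. For these 3 markers the gap between the array sets passed the test (adjusted p 0.0227 for Pxn, 0.0311 for Hml and 0.0358 for vkg). The share of all probe sets with such a smaller effect in replicate 3 is not given here. No reading of the markers as a set is therefore made, and the part of such shifts in the glycolytic values was not tested. Of the neuron markers nSyb was at the floor of the scale, brp rose by 1.18 and elav had 1.06 (adjusted p 0.229), or 0.0188 with the replicate number as a block. Of the muscle markers Tm2 was at or near the floor, and bt rose by 1.09 (0.044), a call made in 3 of the 9 fits that left out 1 dsRNA array. The 3 measured fat body markers were all below the filter. RNA of a whole culture cannot show whether all cells or some of them changed.

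Set against GST, 5 of the 7 glycolytic genes rose in MBD-R2 knockdown, taken as the mean of M1 and M2: Pgi, Pfk, Tpi, Gapdh1 and Eno. None of the 7 fell. Across the whole array 7.85% of the 7298 probe sets tested were called higher and 17.4% lower. A call is an adjusted p under 0.05 in limma with Benjamini-Hochberg adjustment over all tested probe sets. The median difference over the 7 genes was 0.55 log2 units, against -0.03 over all probe sets tested. For the same 5 genes every one of the 6 knockdown arrays lay above every GST array, which was the case for 10.7% of the probe sets tested. The sizes were moderate, between 1.32-fold for Pgi and 2.11-fold for Pfk among the genes that rose. The number of calls changed when 1 dsRNA array was left out. It was 2 without GST replicate 1 or 3, M1 replicate 2, or M2 replicate 1 or 2. It was 3 without GST replicate 2 or M1 replicate 1, and 4 without replicate 3 of M1 or of M2. The median over the 7 genes was 0.44 to 0.61 in these fits. Their share of all probe sets called is not given here. Pfk was called in all 9 of these fits, Tpi in 8, Eno in 5 and Pgi and Gapdh1 in 1 each.

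**Figure D1:**
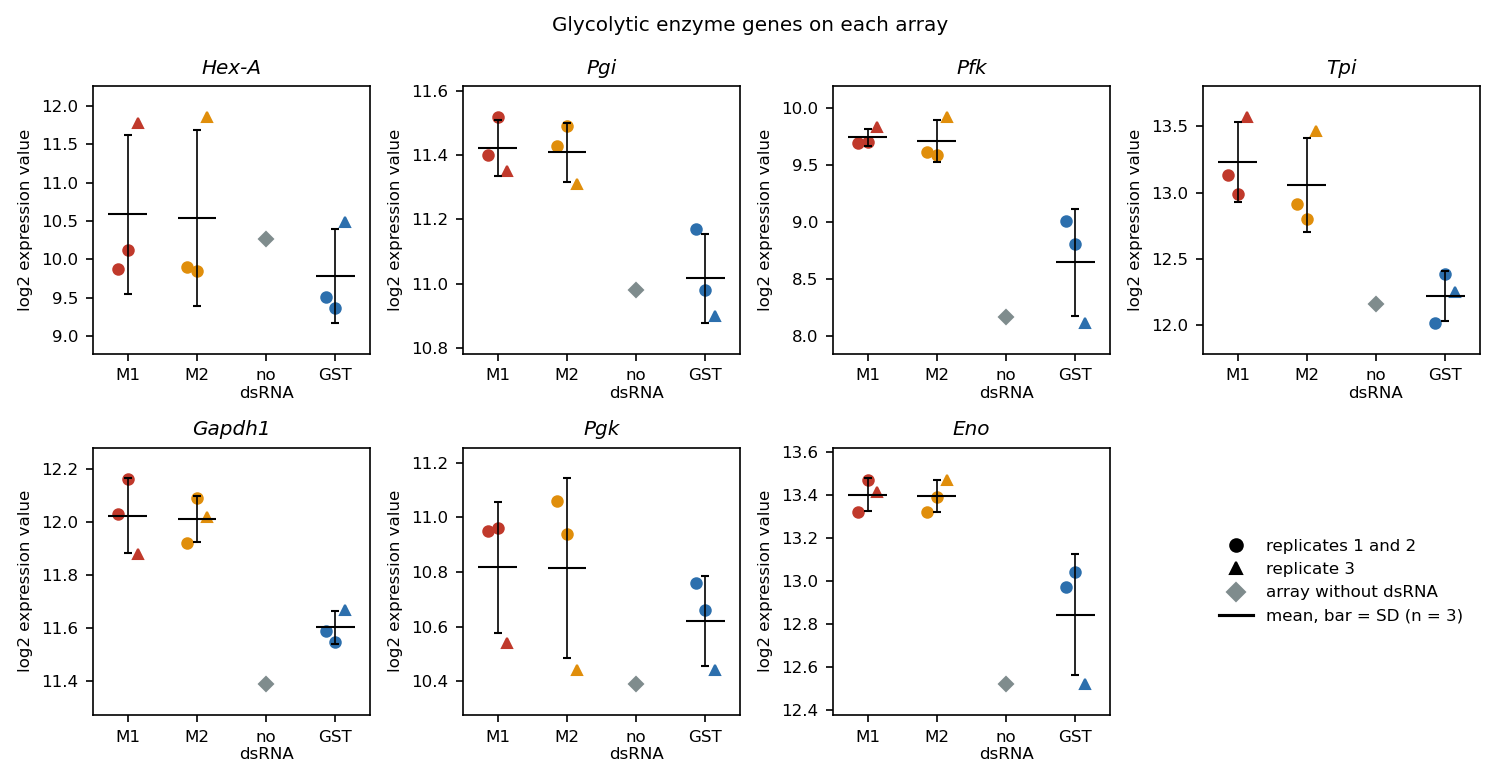
Log2 expression level of the 7 measured glycolytic genes on each of the 10 arrays, with a panel for each gene, points for arrays and bars for the group mean. Pfk, Tpi, Pgi, Gapdh1 and Eno have all 6 M1 and M2 arrays above all 3 GST arrays, while Hex-A and Pgk overlap.

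At the entry of the chain, Hex-A encodes a hexokinase, which phosphorylates glucose. Its level was 9.87, 10.12 and 11.78 in M1 arrays, 9.90, 9.85 and 11.86 in M2 arrays, 10.27 in the array with no dsRNA and 9.51, 9.36 and 10.49 in GST arrays. Replicate 3 was the highest array of each dsRNA group, and the groups overlapped. The knockdown minus GST difference was 0.78 ± 0.59 (SE), with a 95% interval of -0.59 to 2.14 and an adjusted p of 0.405 in limma. Same-numbered arrays differed by 0.36 and 0.39 in replicate 1, 0.75 and 0.48 in replicate 2 and 1.29 and 1.38 in replicate 3, for M1 and M2 in turn, all upward. With the replicate number as a block the adjusted p of Hex-A was 0.0148, and with the array set (replicate 3 against replicates 1 and 2) as a block it was 0.00702. In replicates 1 and 2 alone it was 0.0207. These fits call more probe sets in general: 18% were called higher with the replicate block, 20.3% with the array set block and 16.5% in replicates 1 and 2 alone. Each of the 3 fits called 6 of the 7 glycolytic genes, and Pgk was the gene none of them called.

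Pgi, phosphoglucose isomerase, turns glucose phosphate into fructose phosphate. Its level was 11.40, 11.52 and 11.35 in M1 arrays, 11.43, 11.49 and 11.31 in M2 arrays, 10.98 in the array with no dsRNA and 11.17, 10.98 and 10.90 in GST arrays. The knockdown arrays lay close together and all above the GST arrays. The difference of 0.40 ± 0.12 (SE), or 1.32-fold (95% interval 1.09 to 1.6), had an adjusted p of 0.0449, near the threshold.

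Pfk, phosphofructokinase, catalyses the committed step and is the classic point of allosteric control. Its level was 9.69, 9.70 and 9.83 in M1 arrays, 9.61, 9.59 and 9.92 in M2 arrays, 8.17 in the array with no dsRNA and 9.01, 8.81 and 8.12 in GST arrays. The knockdown arrays spanned a narrow range, the GST arrays a wide one with replicate 3 lowest, and the groups did not overlap. Pfk rose by 1.08 ± 0.21 (SE), or 2.11-fold (95% interval 1.52 to 2.94), with an adjusted p of 0.00624. It was the only one of the 7 called at an adjusted p of 0.01.

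Below the split into triose phosphates, Tpi encodes triose phosphate isomerase, which interconverts the products of aldolase. Its level was 13.13, 12.99 and 13.57 in M1 arrays, 12.91, 12.80 and 13.46 in M2 arrays, 12.16 in the array with no dsRNA and 12.02, 12.39 and 12.25 in GST arrays. Every knockdown array was above every GST array, and replicate 3 was the highest within M1 and within M2. Tpi rose by 0.92 ± 0.20 (SE), or 1.90-fold (95% interval 1.37 to 2.63), with an adjusted p of 0.012. Without GST replicate 1 the adjusted p of Tpi was 0.0558.

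Gapdh1 encodes a glyceraldehyde phosphate dehydrogenase, the enzyme of the NADH-yielding oxidation. Its level was 12.03, 12.16 and 11.88 in M1 arrays, 11.92, 12.09 and 12.02 in M2 arrays, 11.39 in the array with no dsRNA and 11.59, 11.55 and 11.67 in GST arrays. The groups were tight and separate. Gapdh1 rose by 0.41 ± 0.12 (SE), or 1.33-fold, with an adjusted p of 0.0377.

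Pgk, phosphoglycerate kinase, makes the first ATP of the lower chain. Its level was 10.95, 10.96 and 10.54 in M1 arrays, 11.06, 10.94 and 10.44 in M2 arrays, 10.39 in the array with no dsRNA and 10.76, 10.66 and 10.44 in GST arrays. Replicate 3 was the lowest array of each dsRNA group, and knockdown and GST arrays overlapped. The difference was 0.20 ± 0.18 (SE; 95% interval -0.23 to 0.62), with an adjusted p of 0.509, so a rise of the size seen for Pgi lies within the interval. None of the alternatives run for knockdown against GST called Pgk.

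Eno encodes enolase, which forms phosphoenolpyruvate, the substrate of pyruvate kinase. Its level was 13.32, 13.47 and 13.41 in M1 arrays, 13.32, 13.39 and 13.47 in M2 arrays, 12.52 in the array with no dsRNA and 12.97, 13.04 and 12.52 in GST arrays. Knockdown arrays stood together above the GST arrays, of which replicate 3 was the lowest. Eno rose by 0.55 ± 0.15 (SE), or 1.47-fold (95% interval 1.16 to 1.85), with an adjusted p of 0.026.

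**Figure D2:**
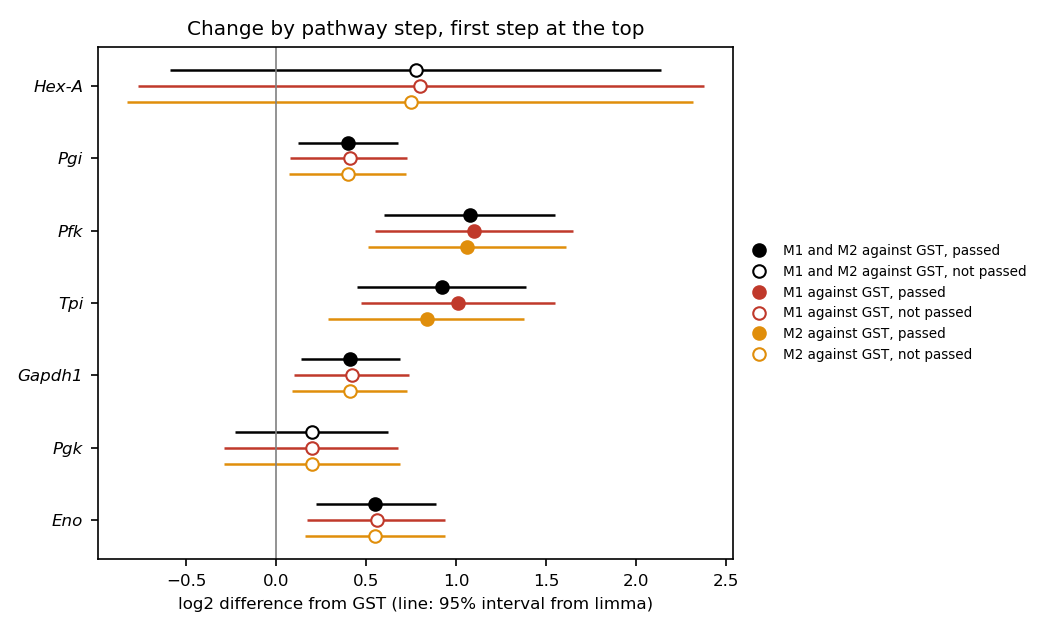
Log2 difference from GST of the 7 glycolytic genes in the order of the pathway, for M1 and for M2, with 95% intervals from limma. Pfk and Tpi lie furthest from 0 among the genes called, and the intervals of Hex-A and Pgk span 0.

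The order of the differences was Pfk (1.08), Tpi (0.92), Hex-A (0.78), Eno (0.55), Gapdh1 (0.41), Pgi (0.40) and Pgk (0.20). The 95% intervals of each neighbouring pair in this order overlap. The enzymes before the split into triose phosphates (Hex-A, Pgi, Pfk) and those after it (Tpi, Gapdh1, Pgk, Eno) each held a gene near the top and one near the bottom of this order.

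The group means of the 2 constructs lay close together. Against GST, M1 alone raised 2 of the 7 genes past the threshold, where 5.67% of all probe sets were called higher, and so did M2 alone, where 5.32% were. In both cases these were Pfk and Tpi. Pfk was higher by 1.10 ± 0.24 with M1 (adjusted p 0.0135) and by 1.06 ± 0.24 with M2 (0.0168). Tpi was higher by 1.01 ± 0.24 with M1 (0.0186) and by 0.84 ± 0.24 with M2 (0.0419). The single-construct calls rest on few arrays. The M1 call of Tpi was lost without GST replicate 1 (adjusted p 0.0663) or M1 replicate 3 (0.054). Of the 9 dsRNA arrays, leaving out any 1 other than M1 replicate 3 lost the M2 call of Tpi, and the M2 call of Pfk was lost without M2 replicate 3 (0.0541). For Eno the adjusted p was 0.0521 with M1 and 0.0571 with M2, for Gapdh1 0.0702 and 0.079 and for Pgi 0.0815 and 0.0927.

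In M2 set against M1 none of the 7 genes was called, in a comparison in which limma called 0% of the 7298 probe sets and 19 had an unadjusted p under 0.05. The M2 minus M1 difference was between -0.17 for Tpi and 0.00 for Pgk and Eno. Its 95% interval was -0.34 to 0.31 for Pgi, -0.33 to 0.31 for Gapdh1 and -0.39 to 0.38 for Eno. It was wider for Pgk (-0.49 to 0.49), Pfk (-0.58 to 0.51) and Tpi (-0.72 to 0.37), and widest for Hex-A (-1.63 to 1.52). Differences between the constructs inside those limits could not be seen with 3 arrays each.

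The array with no dsRNA gives the level without any RNAi. Set against GST, none of the 7 genes was called, and 0% of all probe sets were, with 68 at an unadjusted p under 0.05. Its difference from GST was negative for 6 of the 7 genes, with a median of -0.21, against 0.02 over all probe sets tested. For Pfk it was -0.48 ± 0.34 (SE; 95% interval -1.25 to 0.30) and for Hex-A, the exception, 0.48 ± 0.97. With 1 array the spread of this group is assumed to be that of the others. For the 5 genes that rose in the knockdown, the array with no dsRNA lay below all 6 knockdown arrays. These genes were selected for high knockdown arrays, so this gives no separate support, and the share over all probe sets was not counted. By its control probe sets the array with no dsRNA belongs with replicate 3.

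Within each same-numbered trio, M1 and M2 both exceeded GST for all 7 genes, with M2 replicate 3 of Pgk at 0.00 after rounding. The share of all probe sets that do so was not counted. M1 and M2 are set against the same GST array in each trio, so their differences are not independent. The size of the rise differed between the array sets for Pfk. Its same-numbered differences were 0.69 and 0.61 in replicate 1, 0.89 and 0.78 in replicate 2 and 1.72 and 1.80 in replicate 3, for M1 and M2 in turn. Tested as an interaction, the Pfk effect was 1.76 in replicate 3 and 0.74 in replicates 1 and 2, a gap of 1.02 ± 0.17 (SE; 95% interval 0.59 to 1.45; adjusted p 0.0368 in limma). Such a larger effect was called for 2.63% of the probe sets tested. The gap rests on 1 GST array, replicate 3, where Pfk was at 8.12, close to the 8.17 of the array with no dsRNA. The test takes its spread from replicates 1 and 2, and the spread within replicate 3 is not known. In the same array set the hemocyte-like markers had a median effect of -0.36, against 0.13 in replicates 1 and 2.

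The other genes did not pass that test. The effect was 1.33 in replicate 3 and 0.50 in replicates 1 and 2 for Hex-A (adjusted p of the gap 0.0732), and 0.91 and 0.37 for Eno (0.127). It was 1.27 and 0.75 for Tpi (0.258). Pgi differed little between the sets, at 0.43 and 0.39. Gapdh1 and Pgk leaned the other way, at 0.28 and 0.48 for Gapdh1 and at 0.05 and 0.27 for Pgk. Over the 7 genes the median effect was 0.91 in replicate 3 (-0.12 over all probe sets) and 0.48 in replicates 1 and 2 (0.00 over all).

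**Figure D3:**
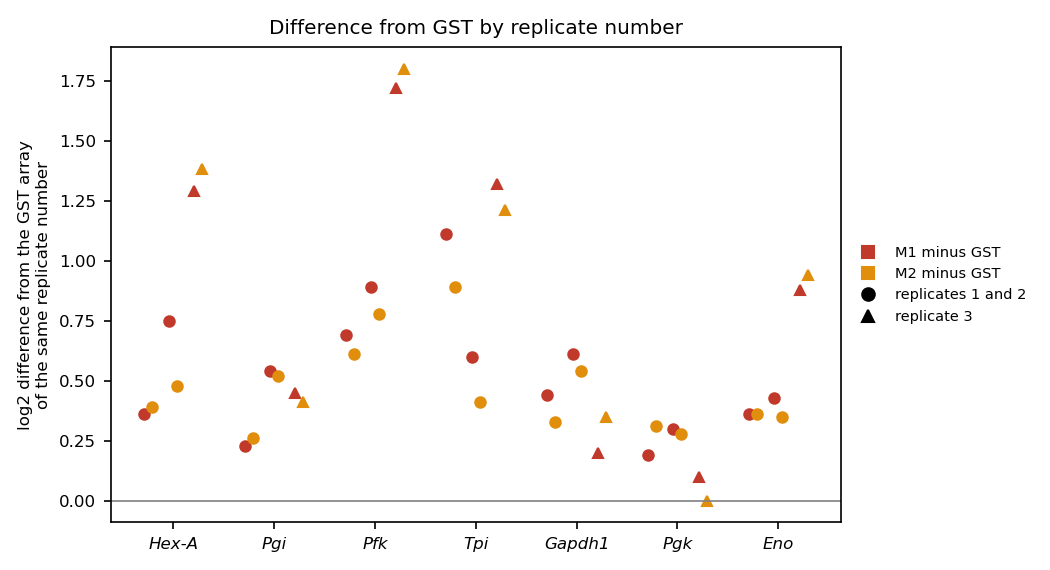
Log2 difference between same-numbered arrays, M1 minus GST and M2 minus GST, for each glycolytic gene and replicate. Pfk, Hex-A, Tpi and Eno have their largest values in replicate 3, and Pgk has its smallest there.

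The sign of some differences depended on the scale against which the arrays were set. As deposited, the median probe set differed by -0.03 between knockdown and GST. After quantile normalisation of the deposited values it differed by 0.02, 11.2% of probe sets were called higher, and 3 of the 7 glycolytic genes were called (Pfk, Tpi and Eno). Centring each array on its 18 hybridisation spike-in probe sets moved the median probe set to 0.18. All 7 genes then had positive differences, between 0.41 for Pgk and 1.29 for Pfk, but none was called, and 1.58% of all probe sets were called higher. The median spike-in level was 13.12 in GST replicate 2 and 10.18 to 12.33 in the other arrays. These are controls of the hybridisation, so centring on them cannot show the RNA content of the cells. With spike-in centring and GST replicate 2 left out, the median probe set moved to -0.65, the differences of Hex-A (-0.02), Pgi (-0.20), Gapdh1 (-0.19) and Pgk (-0.36) turned negative, and Eno (0.07), Tpi (0.43) and Pfk (0.58) stayed positive, with none called. Relative to the median probe set, the 7 genes were higher under each of these scalings. Centring subtracts 1 constant per array, so it cannot change a difference taken relative to that median. This difference was 1.11 for Pfk, 0.95 for Tpi and 0.22 for Pgk, both as deposited and with spike-in centring. Only quantile normalisation (1.09, 0.89 and 0.10) and leaving out GST replicate 2 (1.23, 1.07 and 0.28) could move it. The rises given here are therefore relative to the bulk of the probe sets.

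**Figure D4:**
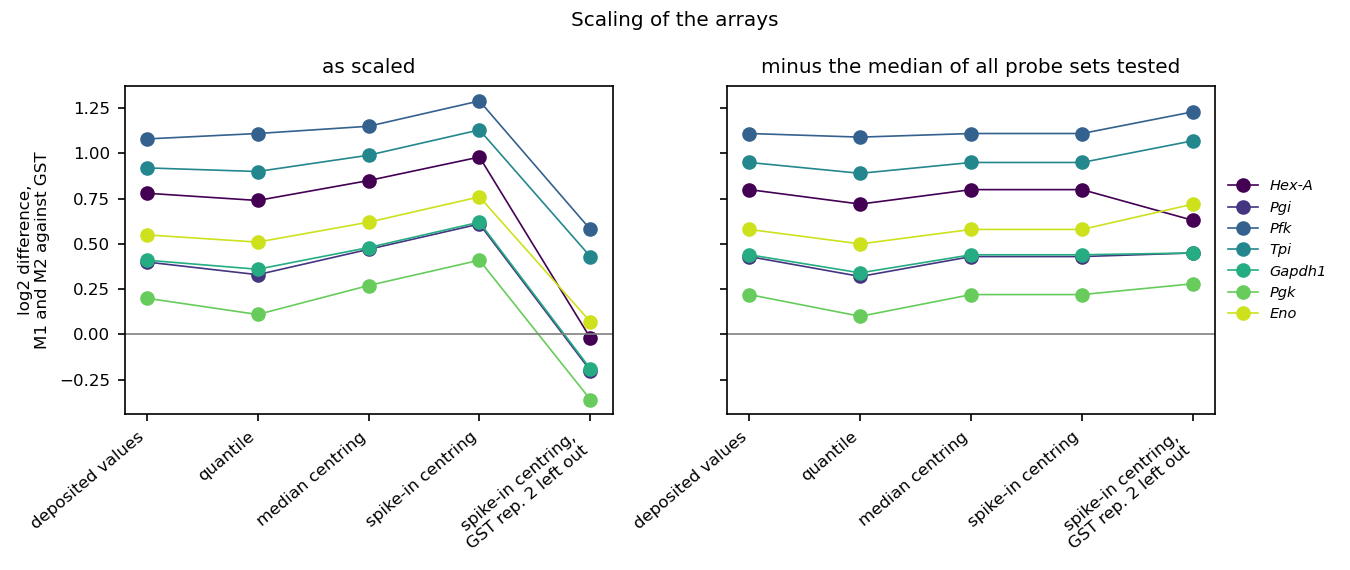
Knockdown minus GST log2 difference of the 7 glycolytic genes under 5 scalings of the arrays, as computed and relative to the median of all probe sets tested. Relative to that median all 7 genes are above 0 under each scaling, and centring by itself cannot change these relative values.

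Other steps of glycolysis were read from 12 measured genes of 13 listed, of which 3 passed the filter. One of the 3, Pglym78, a phosphoglycerate mutase, rose by 0.52 ± 0.15 (adjusted p 0.0389), and its call was lost in 8 of the 9 fits that left out 1 dsRNA array. Aldolase, Ald1, was represented by a probe set with a difference of 0.61 ± 0.25 (adjusted p 0.118). Another Ald1 probe set, looked at after its values were seen, had levels of 10.31, 10.20 and 10.57 in M1 arrays, 10.09, 9.84 and 10.50 in M2 arrays, 9.18 in the array with no dsRNA and 9.12, 9.08 and 9.04 in GST arrays. It rose by 1.17 ± 0.17 (adjusted p 0.00161), so the Ald1 probe sets disagree on the call. The median over the 3 tested genes was 0.61.

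Glycogen and trehalose deliver glucose phosphate or glucose to the top of glycolysis. Of 8 tested genes of their metabolism, 5 rose and none fell, where 7.85% of all probe sets tested were called higher and 17.4% lower, and their median was 0.71, against -0.03 over all. Glyp, glycogen phosphorylase, was at 9.69, 9.69 and 9.10 in M1 arrays, 9.66, 9.57 and 9.04 in M2 arrays, 6.91 in the array with no dsRNA and 7.91, 7.71 and 6.76 in GST arrays. Glyp rose by 2.0 ± 0.29 (adjusted p 0.00164). Pgm1, phosphoglucomutase, which passes glucose phosphate between glycogen and glycolysis, was at 11.26, 11.34 and 11.15 in M1 arrays, 11.18, 11.25 and 11.04 in M2 arrays, 9.20 in the array with no dsRNA and 10.06, 9.92 and 9.38 in GST arrays. Pgm1 rose by 1.42 ± 0.17 (adjusted p 6.0e-04), and neither gene's groups overlapped. Treh, trehalase, rose by 0.90 ± 0.21 (adjusted p 0.0168) and Pgm2a, of the phosphoglucomutase family, by 0.72 ± 0.16 (0.0112). The fifth, Gyg (glycogenin), named after its value was seen, had 0.71 (0.0473) and was called in 2 of the 9 leave-one-out fits, while another Gyg probe set had 0.13 (0.67). The count for this list was 3 to 5 in those fits, whose share over all probe sets is not given here. It was 0 with spike-in centring, where 1.58% of all probe sets were called higher.

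Of 3 tested gluconeogenesis genes, fbp, fructose bisphosphatase, which runs the Pfk step backwards, rose. Its level was 8.22, 8.11 and 8.37 in M1 arrays, 7.93, 7.86 and 8.26 in M2 arrays, 7.07 in the array with no dsRNA and 6.25, 5.55 and 7.03 in GST arrays. The rise was 1.85 ± 0.29 (adjusted p 0.00247), so both enzymes of that opposing pair were higher in the knockdown.

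Pyruvate made by glycolysis enters the mitochondria through a carrier or is reduced in the cytosol. Of 6 tested genes of the glycerol phosphate shuttle and of pyruvate's fate, none rose and 1 fell, with a median of 0.06. One of 6 is near the 17.4% of all probe sets called lower. That gene, Mpc1, a subunit of the mitochondrial pyruvate carrier, was at 8.23, 8.23 and 8.42 in M1 arrays, 8.40, 8.31 and 8.06 in M2 arrays, 9.33 in the array with no dsRNA and 9.07, 9.01 and 9.39 in GST arrays. It fell by 0.89 ± 0.14 (SE; adjusted p 0.00294), was called in all 9 leave-one-out fits, and its groups did not overlap. Of 5 tested pentose phosphate genes none was called, with a median of -0.07, and the smallest adjusted p was that of Taldo, transaldolase (0.36 ± 0.14, 0.0948).

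Neither of 2 tested sugar transport genes was called. The trehalose transporter Tret1-1 had a difference of 1.93 ± 0.70 (adjusted p 0.0798), and 0.00158 with the replicate block. Of 12 tested regulators of sugar metabolism 1 rose, foxo, the transcription factor held back by insulin signalling, by 0.98 ± 0.26 (adjusted p 0.0265), a call made in 4 of the 9 leave-one-out fits. The regulators' median was 0.06, and 1 of 12 is near the 7.85% of all probe sets called higher.

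The counts of the related lists depended on the replicate block, with which 18% of all probe sets were called higher and 25.7% lower. It called 2 of 3 other glycolysis genes higher, 2 of 3 gluconeogenesis genes, 6 of 8 glycogen and trehalose genes, 1 of 6 shuttle and pyruvate genes, 2 of 5 pentose phosphate genes and 1 of 2 sugar transport genes. Of the 12 regulators it called 2 higher and 3 lower, and of the shuttle and pyruvate genes Mpc1 remained the 1 called lower. The pentose phosphate genes were Taldo (adjusted p 0.022) and CG8036 (0.0154), the second named after its value was seen.

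**Figure D5:**
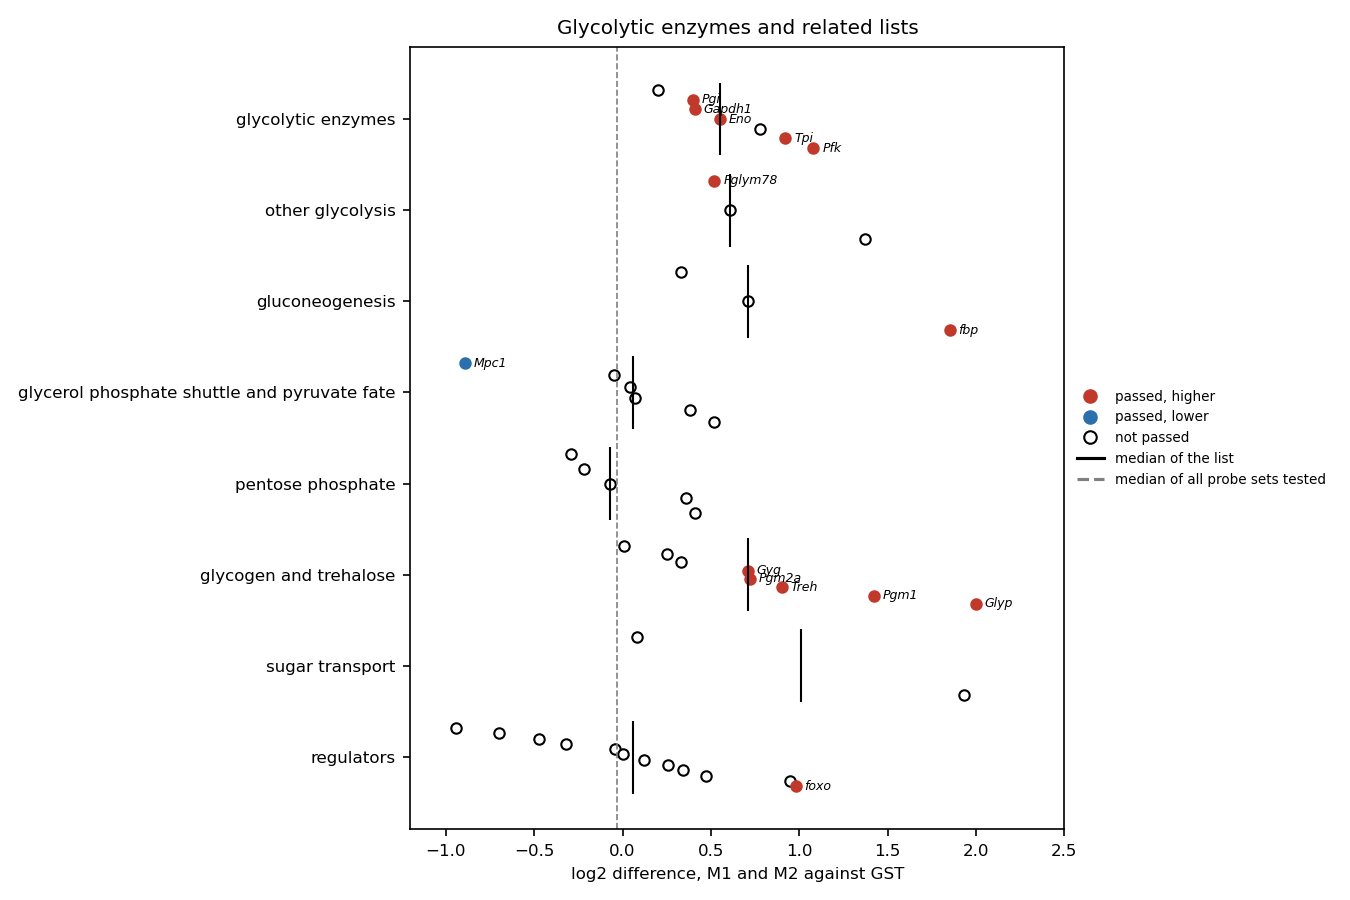
Knockdown minus GST log2 difference of each tested gene in the glycolytic list and in 7 related lists, with filled points for genes called by limma. The glycolytic and the glycogen and trehalose genes lie at or above 0, while the other lists lie on both sides or hold 3 or fewer genes.

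Eno and Pgk overlap other annotated genes. Rrp40, which overlaps Eno, fell by 1.43 ± 0.36 (SE; adjusted p 0.0224), and Cwc25, which overlaps Pgk, fell by 0.98 ± 0.25 (adjusted p 0.0235), so Rrp40 and Eno moved in opposite directions on their own probe sets. The probe sets of Pgi, Tpi and Eno (suffix _s_at) and those of Hex-A and Pfk (suffix _a_at) are of the array's classes that can match several transcripts.

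The median profile of the 7 genes over the 10 arrays was compared with the profiles of 3977 other named genes. The measure was the mean absolute distance between centred log2 values. The nearest were Pdss2 (distance 0.0693), nsl1 (0.0834), jub (0.0835), Pez (0.0852) and scat (0.0852). Their knockdown minus GST differences were 0.48 ± 0.11 for Pdss2 (adjusted p 0.0124), 0.49 ± 0.13 for nsl1 (0.0276), 0.71 ± 0.12 for jub (0.00385) and 0.59 ± 0.15 for scat (0.0202). Pez, at 0.34, was not called (0.0736). These genes were picked on the same arrays, so differences like those of the 7 follow from the choice and are no separate result. By the same measure Gapdh1 (0.0721), Eno (0.0779) and Pgi (0.0806) lay nearest of the 7 to the median profile, and Hex-A (0.696) lay furthest. The 7 genes themselves make that profile.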

How the data were processed

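Expression was measured in 10 samples of SL2 cells, 1 array each. The authors deposited log2 values for 18952 probe sets that were made with GCRMA, per the submitters' processing notes; no source used here gives its version. The lowest value was 2.22, and 50.5 to 53.1% of probe sets per array lay within 0.1 of it. The number of arrays limits the precision. Groups came from the source name.

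The 183 control probe sets were left out. Genes were named from the platform annotation (13646 probe sets with 1 gene, 402 with several, 4721 with none), and 13543 matched RefSeq by Entrez identifier. Probe sets with a mean of at least 4 were fitted with limma 3.58.1 (R 4.3.3) on the means of the 4 groups over all 10 arrays: 7298 probe sets of 5906 genes. Intervals are 95%, and p-values were adjusted by Benjamini-Hochberg over all of them. The code was tested on simulated data, and figures used matplotlib 3.10.9 (Python 3.11.15). The main fit has no block, so its p-values measure the spread between these cultures together with any difference between the array sets.

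Deviations from the group means correlated between same-numbered arrays in all 9 pairs (r 0.34 to 0.93). The numbers thus met the rule for pairing, that every pair exceed 0.1. That rule cannot tell a pairing by number from the array set, because replicate 3 stood apart in every dsRNA group. The main fit has no block for the replicate number, and the replicate block was run as an alternative. The deviations also correlated across numbers 1 and 2 (0.55 to 0.75) and were opposed between replicate 3 and the others (-0.89 to -0.54). The comparisons share the GST arrays.

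All 7 glycolytic genes are named. From each related list the text names at most 4 genes that passed, by smallest adjusted p, and where none did, the top 1, and of genes with a like profile the 5 nearest. The members and lists were chosen with earlier results of these data known. Alternatives covered scaling, filter, variance model, blocks, controls, threshold and each array left out.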

Additional observations from a re-analysis of the deposited data

Results flagged for a closer look

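The Pfk effect was larger in replicate 3 than in replicates 1 and 2 by 1.02 log2 units, and the test of that difference passed. It rests on 1 GST array in replicate 3. With spike-in centring the gap was 0.39 (adjusted p 0.999).

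The array carries 7 control probe sets for GAPDH in 2 series, which were left out of the comparisons and whose gene among the Gapdh genes is not stated. In the series of 3 the knockdown minus GST differences were 0.53 for the 3′ probe set, 0.70 for the 5′ one and 0.65 for the middle one. Their means were 13.49 ± 0.20, 12.62 ± 0.90 and 12.44 ± 0.55 in the 6 knockdown arrays, 12.57, 10.47 and 10.74 in the array with no dsRNA and 12.95 ± 0.47, 11.92 ± 1.25 and 11.79 ± 0.79 in the 3 GST arrays (SD). In limma the adjusted p was 0.126, 0.52 and 0.326, and the array set block gave 0.00732, 0.003 and 0.00105. For the 3′ probe set the difference was 0.81 in replicate 3 and 0.39 in replicates 1 and 2. The 3′ minus 5′ gap of GAPDH was 1.75 to 2.11 in replicate 3 and in the array with no dsRNA, against 0.37 to 0.63 in replicates 1 and 2, and its part in these values was not tested. In the series of 4 the differences were 0.43, 0.66, 0.48 and 0.91 (adjusted p 0.142, 0.08, 0.175 and 0.171, or 0.0577, 0.034, 0.105 and 0.0265 with the array set block). Their order between the array sets was the opposite, at -0.07, -0.08, 0.25 and -0.08 in replicate 3 and 0.67, 1.03, 0.60 and 1.40 in replicates 1 and 2.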

How the results depend on the processing

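The count of glycolytic genes called higher in knockdown against GST (5) was 3 after quantile normalisation, 0 with spike-in centring, with or without GST replicate 2, 1 at an adjusted p of 0.01, and 2 to 4 with 1 array left out. For M1 (2) it was 6 with the replicate block and with the array set block, 5 in replicates 1 and 2 alone, with median centring, with array weights and with the array without dsRNA pooled with GST, 0 with either spike-in centring and at an adjusted p of 0.01, and 1 to 2 with 1 array left out. For M2 (2) it was 6 with the replicate block and with the array set block, 5 with array weights and with pooled controls, 4 with median centring, 1 with quantile normalisation and with no filter, 0 with either spike-in centring and at an adjusted p of 0.01, and 0 to 2 with 1 array left out. The count of genes with a different effect in replicate 3 (1) was 2 with quantile normalisation and with median centring, 3 with trend and robust variances, and 0 with spike-in centring and at an adjusted p of 0.01. The comparisons of M2 with M1 and of no dsRNA with GST called 0 of the 7 genes in every alternative run. Shares of all probe sets called are not given here for the M1, M2 and replicate 3 alternatives or with 1 array left out. In knockdown against GST the share called higher went from 7.85% to 18% with the replicate block and to 20.3% with the array set block.

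The median difference over the 7 genes (0.55) was 0.76 with spike-in centring, -0.02 with spike-in centring and GST replicate 2 left out, 0.46 with array weights, 0.63 with pooled controls, 0.91 in replicate 3 alone and 0.44 to 0.61 with 1 array left out. Spike-in centring without GST replicate 2 turned these differences: against GST, knockdown gave -0.02 for Hex-A, -0.20 for Pgi, -0.19 for Gapdh1 and -0.36 for Pgk, M1 gave -0.21 for Hex-A, -0.42 for Pgi, -0.41 for Gapdh1, -0.59 for Pgk and -0.15 for Eno, and M2 gave -0.14 for Pgk. With spike-in centring the replicate 3 gap turned to -0.59 for Pgi, -0.12 for Tpi and -0.10 for Eno. The cause of these changes was not tested. The members have no second probe set, so that alternative gave no value, and among the 7 genes the replicate block changed no call of knockdown against GST other than that of Hex-A. Probe sets at the floor of the scale carry no order, and 3 arrays a group limit what differences can be seen.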
